A study of Mus musculus with 18 samples.

Results

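The signal transducers and activators of transcription (STATs) analysed here were 6 genes, Stat2, Stat3, Stat4, Stat5a, Stat5b and Stat6, taken by gene name from a table of read counts for 21734 mouse protein-coding genes. All 6 passed the filter on low counts that left 11357 genes for testing, although Stat4 passed with only 2 to 10 counts in a library. Transcripts were measured by RNA sequencing of ribosomal RNA-depleted total RNA in 18 libraries of bone marrow-derived macrophages (BMDMs), which were grown from marrow for 8 to 9 days in M-CSF at 10 ng/ml. The marrow came from mice of mixed 129/B6 background, 6 to 7 months old and 3 of each genotype. The study's methods give that age for BMDM culture. They give a younger age for the BMDM lysates used in mass spectrometry, which the study describes as fractions of the same replicates. WT BMDMs carried intact miR-146a, KO BMDMs lacked it, and 3′F BMDMs carried the non-seed swap, in which the 3′ part of the pre-miRNA duplex was exchanged between its strands while the seed was kept. Each genotype was harvested after 16 h either resting, in fresh medium without lipopolysaccharide (LPS), or with LPS at 1 ng/ml, which gave 6 groups of 3 libraries. Both mutant lines came from targeted embryonic stem cells, were backcrossed 3 times to C57BL6/J and carried the allele in every tissue, not in macrophages alone, and WT controls were bred from both lines. The question of the series is what the non-seed bases of miR-146a contribute beside its seed.

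STAT proteins wait in the cytoplasm until a cytokine binds its receptor, whose attached Janus kinases (JAKs) phosphorylate a tyrosine on the STAT so that it pairs with another STAT and enters the nucleus to bind DNA. In macrophages LPS leads to secretion of interferon-β, interleukin 6 and interleukin 10, which then act on the same cells through these factors. STAT2 joins IRF9 in the interferon-stimulated gene factor that binds interferon-stimulated response elements, STAT3 carries the signals of interleukins 6 and 10, STAT4 that of interleukin 12 in T and NK cells, STAT5A and STAT5B those of GM-CSF and related cytokines, and STAT6 that of interleukins 4 and 13.

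Values are given as CPM, counts per 1000000 of library size after TMM scaling, and means carry their SD over 3 libraries. Total counts ran from 4071084, in resting 3′F replicate 3, to 19818043. That library and resting KO replicate 3 stood apart from the other resting libraries for several STAT genes. Most tests that rest on them are given with and without them, while correlations use all 18 libraries. All 8 macrophage markers had more than 3 counts in every library, and their summed level was between 31760 and 87880 CPM. Markers of T and NK cells, in which Stat4 is best known, summed to 3.21 to 12.5 CPM over 12 genes, with Cd3e and Gzma at 0 in all 18 libraries and Cd3g, Cd3d, Cd8a and Ncr1 at 0 in some groups. Cd4 had the most counts of the 12, at 29 to 194, in every library but resting KO replicate 3, where it had 4 and Cd2 24. Over all libraries Cd2 had 0 to 24 counts and Lck 0 to 11. The 7 markers of neutrophils and their precursors reached 12.7 to 66.0 CPM and the 5 B cell markers 0.226 to 1.17 CPM, and the part of such cells in any STAT value was not tested. In bulk RNA, a smaller number of cells of a type and less RNA per cell cannot be told apart.

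Per kb of exon, Stat6 was the most abundant of the 6 STAT genes in resting WT BMDMs, at 63.5 ± 1.55 CPM per kb (n = 3). Stat3 followed at 17.8 ± 1.70 CPM per kb, then Stat5b at 9.51 ± 1.53, Stat2 at 7.38 ± 1.51, Stat5a at 6.65 ± 0.322 and Stat4 at 0.164 ± 0.0628. The ranges of Stat5b and Stat2 overlapped, as did those of Stat2 and Stat5a, whereas Stat6, Stat3 and Stat4 each lay clear of their neighbours in this order. In WT BMDMs with LPS the order was led by Stat2, at 67.3 ± 31.6 CPM per kb, but its range of 37.2 to 100.1 enclosed that of Stat6, at 56.5 ± 0.342. Stat3 was next at 35.6 ± 5.70 CPM per kb, and Stat5a (9.36 ± 0.653) and Stat5b (9.13 ± 0.924) overlapped below it. Resting KO BMDMs kept Stat6 first at 74.8 ± 7.29 CPM per kb, and Stat2 took the second place there with 36.6 ± 38.6, a mean that rests on 1 library, with a range of 12.2 to 81.1 that overlapped those of Stat6 and of Stat3 (26.7 ± 7.59). With LPS, Stat2 was first in KO at 93.7 ± 10.4 CPM per kb and clear of Stat6 at 60.1 ± 0.207. In 3′F BMDMs the order was Stat6, Stat3, Stat5b, Stat5a, Stat2 and Stat4 at rest, where the 3 from Stat5b to Stat2 overlapped with their neighbours. With LPS it was Stat2, Stat6, Stat3, Stat5a, Stat5b and Stat4 as in WT, and Stat2 (66.5 ± 7.77) overlapped Stat6 (60.8 ± 3.77).

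**Figure D1:**
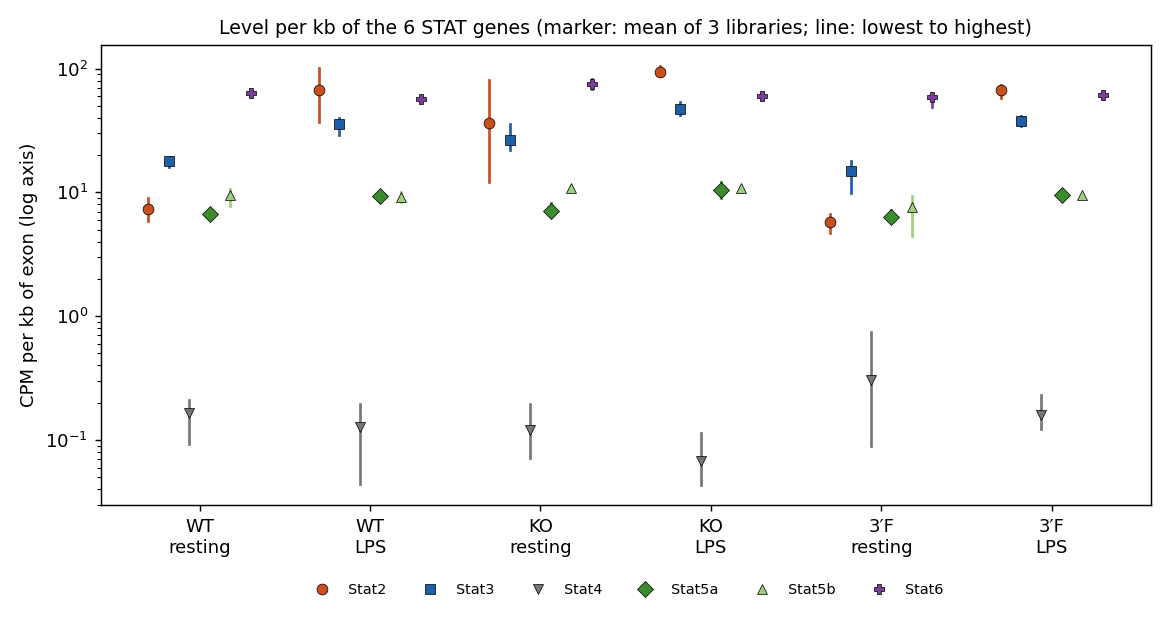
Level of each STAT gene per kb of exon, in CPM per kb on a log axis, for the 6 groups on the horizontal axis. Markers are means of 3 libraries and lines run from the lowest to the highest library. Stat2 moves from 7.38 in resting WT to 67.3 with LPS, whereas Stat6 stays between 56.5 and 74.8 and Stat4 lies below 1 in every group.

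In WT BMDMs, LPS raised 3 of the 6 STAT genes, Stat2, Stat3 and Stat5a, and lowered none. The call was an adjusted p under 0.05 in edgeR's quasi-likelihood test with Benjamini-Hochberg adjustment over all genes tested, a rule that 28.5% of all genes passed, 16.3% of them as higher (each as a share of genes tested). The median log2 fold change was 0.22 over the 6 STAT genes and 0.02 over all genes tested. In 3′F BMDMs the same 3 STAT genes were called and all were higher, against 31.2% of all genes called and 17.2% called higher, with a median of 0.44 over the STAT genes. In KO BMDMs 3 were called, Stat3 and Stat5a higher and Stat6 lower, against 26.9% of all genes called, 14.3% higher and 12.6% lower. Groups of 3 libraries that did not overlap were seen for 47.5% of all genes tested in the WT response, 42.7% in the KO response and 45.2% in the 3′F response.

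**Figure D2:**
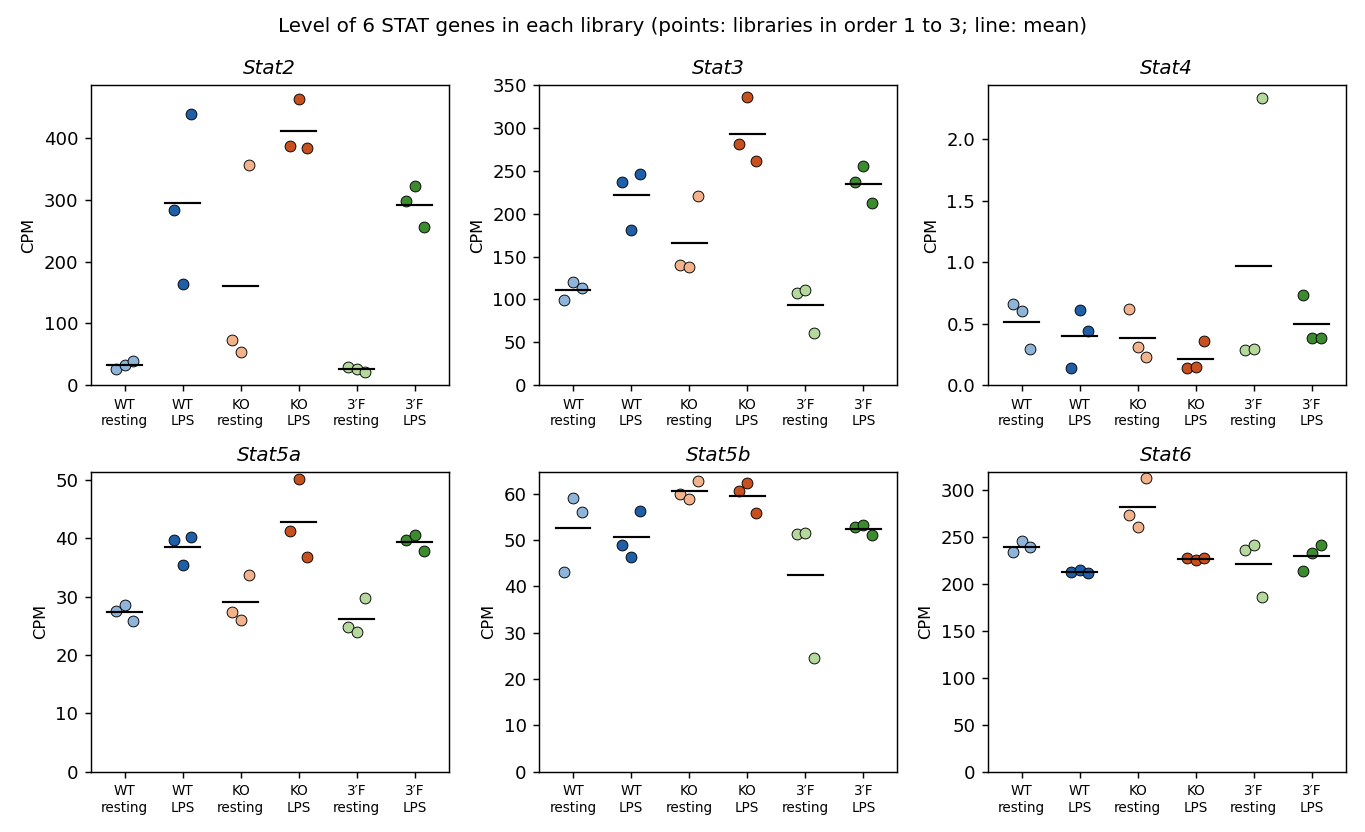
Level of each STAT gene in CPM in the 18 libraries, with 1 panel per gene, its own vertical axis starting at 0, and the 6 groups on the horizontal axis. Points are libraries in the order of replicates 1 to 3 and bars are group means. Every LPS library of Stat2, Stat3 and Stat5a lies above every resting library of the same genotype, and resting KO replicate 3 reaches 356.7 CPM of Stat2 against 72.7 and 53.8 in the other two.

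Stat2 (ENSMUSG00000040033) lies on the plus strand of chromosome 10, at chr10:128270559-128292849 of GRCm38 (Gencode M21). Its promoter is shown because Stat2 was the member that moved most. The 300 bases from 250 before to 50 after the RefSeq start, which lies upstream of the Gencode start, are chr10:128270248-128270547 of GRCm38.p6 on the plus strand. They hold 1 match to the core of an interferon-stimulated response element, searched as GAAA, any 2 bases and GAAA, which lies on the opposite strand and is printed in capitals as read on the plus strand.
Stat2 promoter: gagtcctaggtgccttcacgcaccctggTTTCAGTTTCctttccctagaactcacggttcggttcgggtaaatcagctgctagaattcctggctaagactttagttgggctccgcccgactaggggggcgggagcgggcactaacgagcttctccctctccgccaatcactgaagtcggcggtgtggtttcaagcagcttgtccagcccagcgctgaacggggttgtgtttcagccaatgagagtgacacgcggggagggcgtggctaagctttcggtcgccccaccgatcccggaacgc
The match spans positions -222 to -213 from the start. Of 32851 mouse promoters of this length in RefSeq, 3.44% hold that core on either strand. The Stat2 promoter held no match to TTCNNNGAA, the gamma-activated site to which STAT dimers bind (8.3% of all promoters), nor to a form of the NF-κB site searched as GGG, any 2 bases and TTTCC (1.63%), each searched on both strands. Of the other 5 genes, 1 window held a match to any of the 3 motifs, at a second RefSeq start of Stat4 (chr1:52007990-52008289, plus strand), with the response element core in capitals at positions -97 to -88.
Stat4 promoter, second start: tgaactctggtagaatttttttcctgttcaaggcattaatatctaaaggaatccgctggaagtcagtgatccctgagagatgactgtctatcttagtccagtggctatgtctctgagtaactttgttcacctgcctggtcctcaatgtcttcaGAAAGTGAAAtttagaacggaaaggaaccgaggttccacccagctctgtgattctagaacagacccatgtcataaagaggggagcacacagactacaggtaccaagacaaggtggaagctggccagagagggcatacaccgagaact
A match describes the letters only.

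miR-146a-5p is encoded on the minus strand of chromosome 11, at chr11:43374435-43374456 of GRCm38.p6. Its RefSeq sequence is shown with the seed, bases 2 to 8, in capitals, since Stat2 was the only one of the 6 genes whose longest annotated 3′ UTR held a match to that seed. The 3 stretches of the Stat2 3′ UTR, of 1476 bases in all, are printed with the letters that pair to the seed in capitals. Each position is that of the first base of GTTCTC, which all 3 sites share, counted from the first base after the stop codon.
miR-146a-5p: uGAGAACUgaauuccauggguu
Stat2 3′ UTR, site of 7 bases at 475: tgggcccttcAGTTCTCtcttc
Stat2 3′ UTR, site of 6 bases at 1085: gcactgtggccGTTCTCtaacg
Stat2 3′ UTR, site of 6 bases at 1375: gtaagtccctgGTTCTCtgctg
Among the 11257 genes tested that have an annotated 3′ UTR, 22.2% hold a site of 7 or 8 bases and 64.3% hold no site of 6 bases. Stat3, Stat4, Stat5a, Stat5b and Stat6 held no site of 6 or more bases in 3′ UTRs of 3701, 253, 1173, 2365 and 976 bases.

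Stat2 was at 26.0, 32.1 and 39.2 CPM in resting WT BMDMs and at 283.9, 163.4 and 440.3 CPM in WT BMDMs with LPS. Every LPS library was above every resting library, and the LPS libraries were spread over a wider range. The log2 fold change was 3.19 (SE 0.548, 95% interval 2.03 to 4.35), which is 9.13-fold (edgeR, adjusted p = 0.00045). Resting 3′F libraries held 29.3, 26.6 and 20.5 CPM and 3′F libraries with LPS held 298.0, 323.4 and 255.8 CPM. These lay close to the WT values in each state, and the LPS response in 3′F was 3.50 on the log2 scale (SE 0.559, edgeR adjusted p = 0.000229).

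In KO BMDMs the resting libraries held 72.7, 53.8 and 356.7 CPM of Stat2, and those with LPS held 387.3, 464.5 and 384.1 CPM. All 3 resting KO libraries were above all 3 resting WT libraries, and replicate 3 was within the span of the WT libraries with LPS. Against resting WT, Stat2 was higher in resting KO by 2.31 on the log2 scale (SE 0.531, 95% interval 1.18 to 3.43, edgeR adjusted p = 0.0127). It was the only STAT gene called in this comparison, 1 of 6, where 9.4% of all genes tested were called and 5.12% were called higher. Without resting KO replicate 3 the difference was 0.97 (adjusted p = 0.0569), and the call was also lost without resting WT replicate 1 (2.17, adjusted p = 0.0609) or resting WT replicate 2 (2.30, adjusted p = 0.0579). With the KO library and resting 3′F replicate 3 both left out it was 0.99 (adjusted p = 0.0317), and in a fit of the resting KO and WT libraries alone it was 2.29 and not called (adjusted p = 0.133).

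The LPS response of Stat2 in KO moved with resting KO replicate 3 and with the method. With all libraries it was 1.36 on the log2 scale (SE 0.509, 95% interval 0.28 to 2.44, edgeR adjusted p = 0.0585) and was not called. Without resting KO replicate 3 it was 2.70 (adjusted p = 8.63e-06), and with all libraries it was called at 2.54 by limma-voom, which weights libraries by quality (adjusted p = 2.05e-07), and at 1.33 without the filter on low counts (adjusted p = 0.0331). In the edgeR fit with a block for the replicate number, which the labels do not tie to a mouse, it was called at 1.91 (adjusted p = 0.0141). The difference between the KO and WT responses of Stat2, tested as an interaction, was -1.83 (SE 0.718, unadjusted p = 0.0214, adjusted p = 0.833). It was -0.49 without resting KO replicate 3 (adjusted p = 1), and without that library and resting 3′F replicate 3 it was -0.53 (adjusted p = 0.733). The difference between the 3′F and WT responses was 0.31 (SE 0.722, adjusted p = 0.983). With LPS, Stat2 was 0.48 higher in KO than in WT on the log2 scale (95% interval -0.58 to 1.54, adjusted p = 0.692) and -0.02 in 3′F against WT (95% interval -1.07 to 1.04, adjusted p = 1). Neither passed the test, and both intervals include a 2-fold difference in at least 1 direction.

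Stat3 (ENSMUSG00000004040), at chr11:100885098-100939540 on the minus strand, was at 99.4, 120.0 and 113.6 CPM in resting WT and at 236.5, 180.9 and 246.9 CPM in WT with LPS. The groups did not overlap, and the log2 fold change was 1.00 (SE 0.215, 95% interval 0.54 to 1.45, edgeR adjusted p = 0.00254). Resting 3′F libraries held 107.6, 110.6 and 61.3 CPM and 3′F libraries with LPS 236.9, 256.1 and 212.1 CPM. The low value was that of the shallow resting 3′F replicate 3, and the 3′F response of 1.32 on the log2 scale (SE 0.217, adjusted p = 0.000279) was 1.07 without it (adjusted p = 0.000735).

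KO libraries held 139.9, 138.1 and 220.9 CPM of Stat3 at rest and 281.5, 336.6 and 261.9 CPM with LPS. Replicate 3 was again the highest of the resting KO libraries, yet the resting and LPS groups did not overlap. The LPS response in KO was 0.82 on the log2 scale (SE 0.214, edgeR adjusted p = 0.00904), and it missed the threshold only without KO replicate 2 with LPS (0.66, adjusted p = 0.0614) among the 6 libraries left out in turn. All 3 KO libraries were above all 3 WT libraries in each state, but Stat3 passed the test in neither, at 0.58 at rest (95% interval 0.13 to 1.04, adjusted p = 0.103) and 0.41 with LPS (95% interval -0.04 to 0.86, adjusted p = 0.339). Groups that did not overlap were found for 26.8% of all genes tested in KO against WT at rest and for 32.9% with LPS. Without resting KO replicate 3 the resting difference was 0.33 (adjusted p = 0.385).

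Stat5a and Stat5b are neighbours of Stat3 on chromosome 11. The 5′ ends of Stat5b (chr11:100780731-100850724, minus strand) and Stat5a (chr11:100859351-100885169, plus strand) face each other across 8626 bases. The 3′ ends of Stat5a and Stat3 overlap by 72 bases on opposite strands, and the 3 genes span 158810 bases. The proteins of Stat5a and Stat5b are close paralogs, and the longest stretch shared by annotated transcripts of the pair was 324 bases. Of 50-base windows along the exons, 8.21% of those of Stat5a occur in Stat5b and 11% of those of Stat5b occur in Stat5a, so reads from these stretches could not be assigned to 1 of the pair. Counting was by strand, which keeps the reads of Stat5a and Stat3 apart.

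Stat5a (ENSMUSG00000004043) was at 27.5, 28.5 and 25.9 CPM in resting WT and 39.7, 35.3 and 40.2 CPM in WT with LPS. Its groups did not overlap, although the rise was far smaller than that of Stat2, with a log2 fold change of 0.49 (SE 0.128, 95% interval 0.22 to 0.76, edgeR adjusted p = 0.00875). In KO it was at 27.3, 26.1 and 33.8 CPM at rest and 41.2, 50.1 and 36.9 CPM with LPS, and in 3′F at 24.8, 23.98 and 29.8 CPM at rest and 39.6, 40.6 and 37.8 CPM with LPS. The groups were apart in both mutants, with responses of 0.56 in KO (SE 0.128, adjusted p = 0.00371) and 0.60 in 3′F (SE 0.130, adjusted p = 0.00244). Stat5a was the STAT gene called in all 3 responses whichever single library was left out of them, together with Stat2 in WT and 3′F and Stat3 in WT and 3′F. Between genotypes its log2 difference lay between -0.07 and 0.16 in the 6 comparisons and none passed the test.

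Stat5b (ENSMUSG00000020919) was at 43.0, 59.0 and 56.0 CPM in resting WT and 49.0, 46.4 and 56.3 CPM in WT with LPS. These groups overlapped, and the log2 difference was -0.06 (95% interval -0.47 to 0.35, edgeR adjusted p = 0.863). KO libraries held 60.1, 58.9 and 62.8 CPM at rest and 60.6, 62.3 and 55.8 CPM with LPS, with a difference of -0.02 (adjusted p = 0.942). Resting 3′F libraries held 51.4, 51.6 and 24.5 CPM and those with LPS 52.9, 53.2 and 51.0 CPM. The one low value is from the shallow library, where Stat5b had 105 counts. The 3′F response went from 0.27 (adjusted p = 0.296) to -0.02 without that library (adjusted p = 0.932). Chi-square per degree of freedom between resting 3′F libraries was 64.6 and 59.0 for pairs with replicate 3 and 7.31 for replicates 1 and 2. Whether depth accounts for the low value was not tested.

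The ratio of the pair was higher with LPS than at rest in WT and KO. Stat5a stood to Stat5b, per kb, at 0.863, 0.652 and 0.624 in resting WT and at 1.09, 1.03 and 0.964 in WT with LPS. All 3 ratios with LPS were above all 3 at rest, with means of 0.713 ± 0.130 and 1.03 ± 0.0638. In KO the means were 0.645 ± 0.0695 at rest and 0.964 ± 0.105 with LPS, again without overlap. In 3′F the resting ratios were 0.650, 0.627 and 1.64, the last from the shallow library, and those with LPS were 1.01, 1.03 and 1.00, so the 3′F groups overlapped through that library. The ratio was not among the tests, and an exact permutation of 3 against 3 libraries cannot go below p = 0.1.

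**Figure D3:**
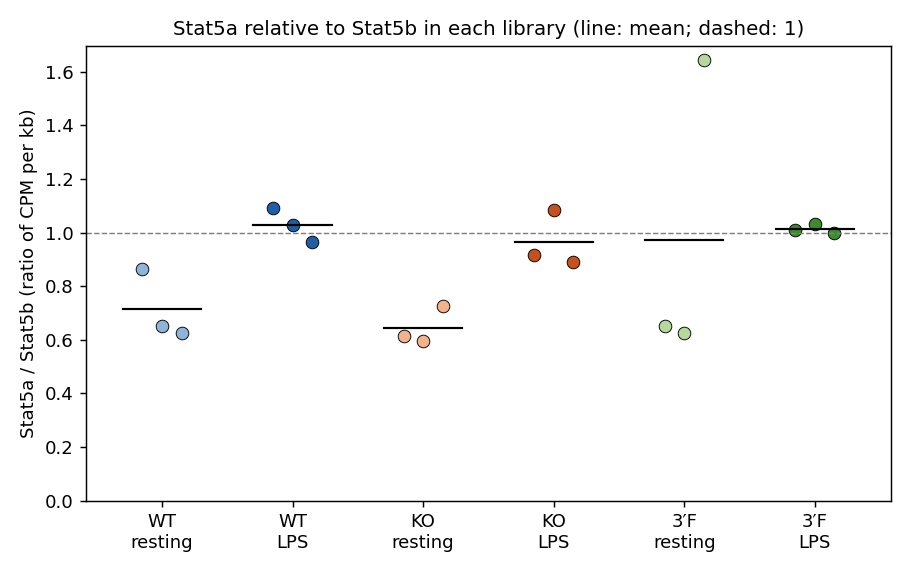
Ratio of Stat5a to Stat5b, each in CPM per kb of exon, in the 18 libraries by group, with bars at group means and a dashed line at 1. Ratios are near 1 in all groups with LPS and at 0.597 to 0.863 in the resting groups apart from 1.64 in resting 3′F replicate 3.

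Stat6 (ENSMUSG00000002147), at chr10:127642986-127660957 on the plus strand and 609601 bases from Stat2, varied least between libraries of WT. It was at 233.9, 245.6 and 239.1 CPM at rest and 213.1, 214.6 and 212.1 CPM with LPS. All LPS libraries were below all resting ones by a small margin, and the log2 difference of -0.17 (95% interval -0.39 to 0.05, edgeR adjusted p = 0.249) was not called. KO libraries held 273.9, 260.2 and 313.2 CPM at rest and 227.2, 225.9 and 227.2 CPM with LPS. The groups were apart, and Stat6 fell by 0.32 on the log2 scale (SE 0.103, adjusted p = 0.0316). It missed the threshold in 4 of the 6 fits that each left out 1 library, where the adjusted p was 0.0579 without resting KO replicate 1, 0.0889 without replicate 3, and 0.0788 and 0.0723 without replicates 1 and 3 of KO with LPS, and also without the filter on low counts (adjusted p = 0.0746). In the edgeR fit with a block for the replicate number the fall was not called either (-0.31, adjusted p = 0.0806). In 3′F it was at 236.5, 241.1 and 186.2 CPM at rest and 214.0, 233.1 and 241.8 CPM with LPS. These groups overlapped (0.05, adjusted p = 0.744), and the sign turned to -0.10 without the shallow library. All 3 KO libraries of Stat6 were above all 3 WT libraries in each state, without a call. The difference was 0.24 at rest (95% interval 0.02 to 0.46, edgeR adjusted p = 0.174) and 0.09 with LPS (adjusted p = 0.727). Groups did not overlap for 26.8% and 32.9% of all genes tested. In KO against WT at rest 3 of 6 STAT genes had an unadjusted edgeR p under 0.05, as did 2671 of all genes tested.

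Stat4 (ENSMUSG00000062939, chr1:51987148-52107189, plus strand) was at the edge of detection. Resting WT libraries held 10, 8 and 3 counts and WT libraries with LPS 2, 9 and 6, resting KO 10, 4 and 2, KO with LPS 2, 2 and 5, resting 3′F 5, 5 and 10, and 3′F with LPS 10, 7 and 3. In 6 of 18 libraries the count was 3 or lower, the floor used here. The 10 counts of the shallow resting 3′F library gave 2.33 CPM, the highest level of any library, where the others ran from 0.138 to 0.732 CPM. Differences between groups were not detectable at this depth, with log2 intervals as wide as -1.98 to 1.17 for the WT response.

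**Figure D4:**
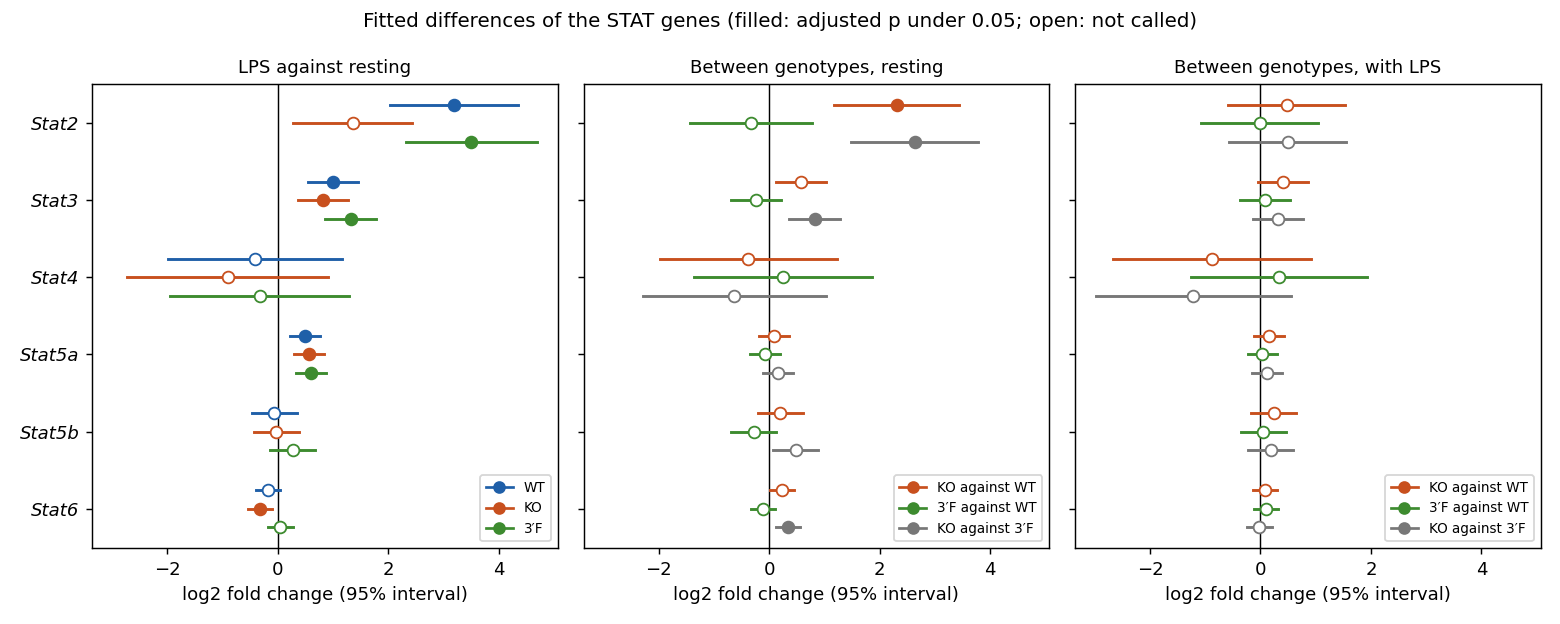
Log2 fold changes of the 6 STAT genes with 95% intervals from the edgeR fit, for LPS against resting in each genotype and for pairs of genotypes at rest and with LPS. Filled markers have an adjusted p under 0.05 and open markers do not. Stat2 at 3.19 in WT and 3.50 in 3′F lies farthest from 0, and no marker is filled in the panel of genotypes with LPS.

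Between KO and 3′F, which share the KO libraries with the comparison above, 3 of 6 STAT genes were called at rest, all higher in KO, where 12.9% of all genes tested were called and 6.79% were called higher. Stat2 differed by 2.64 (SE 0.541, edgeR adjusted p = 0.00822), Stat3 by 0.82 (SE 0.215, adjusted p = 0.0221) and Stat6 by 0.35 (SE 0.103, adjusted p = 0.0374) on the log2 scale, and Stat5b by 0.48 without a call (adjusted p = 0.103). None of these 4 genes overlapped between the groups, which was so for 29.7% of all genes tested. Without resting KO replicate 3, Stat2 was at 1.29 (adjusted p = 0.0181) and the other two calls were lost with Stat3 at 0.56 (adjusted p = 0.083) and Stat6 at 0.27 (adjusted p = 0.107). Without resting 3′F replicate 3, Stat2 was at 2.51 (adjusted p = 0.0314), and Stat3 at 0.61 (adjusted p = 0.0619) and Stat6 at 0.25 (adjusted p = 0.0853) again missed the threshold. In a fit of the 6 libraries alone none of the 3 was called (adjusted p = 0.17, 0.242 and 0.342 for Stat2, Stat3 and Stat6), and Stat6 also missed the threshold without resting KO replicate 1 (adjusted p = 0.0606) and without the filter (adjusted p = 0.0926).

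No STAT gene was called in any other comparison of genotypes. In KO against WT with LPS 0 of 6 were called, where 4.79% of all genes tested were, and in KO against 3′F with LPS 0 of 6, where 3.88% were. DESeq2 called 0 of 6 in each of them too, and no STAT gene had an unadjusted edgeR p under 0.05, while a fit of KO and 3′F with LPS alone called Stat2 (0.46, adjusted p = 0.0154). Stat2, Stat3, Stat4 and Stat5b did not overlap between KO and 3′F with LPS, as was so for 34.3% of all genes, and their log2 differences were 0.49, 0.32, -1.21 and 0.19. In 3′F against WT, 0 of 6 STAT genes were called at rest, where 0% of all genes tested were, and 0 of 6 with LPS, where 0.00881% were. DESeq2 called 0 of 6 in both as well, and none of the 6 had an unadjusted edgeR p under 0.05, where 557 of all genes tested had one at rest and 106 with LPS. Every STAT gene overlapped between 3′F and WT in both states, and 7.11% of all genes at rest and 7.87% with LPS did not. The widest 3′F to WT differences among the 5 STAT genes other than Stat4 were -0.33 for Stat2 (95% interval -1.43 to 0.78) and -0.28 for Stat5b (95% interval -0.69 to 0.13), both at rest. Of the interactions, 0 of 6 STAT genes were called for KO, where 0.00881% of all genes tested were, and 0 of 6 for 3′F, where 0% were. Stat2 in KO was the only member with an unadjusted p under 0.05 in either.

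The genes around the STATs were taken from lists of cytokines, receptors, kinases, partners, inhibitors and targets, of which 96 distinct genes were tested. The lists were chosen with earlier results of these data known, so the shares below describe them and are not a test of them. In the WT response to LPS, 58 of the 96 were called (60.4%, against 28.5% of all genes tested), 50 of them higher and 8 lower. In the 3′F response it was 55 (57.3%, against 31.2%), 48 of them higher. In KO it was 38 (39.6%, against 26.9%), 27 of them higher, and without resting KO replicate 3 it was 64, where 35.5% of all genes were called. Between KO and WT at rest 23 were called, all higher in KO (24%, against 9.4% of all genes), or 17 without resting KO replicate 3, where 7.18% of all genes were called. With LPS it was 4 (4.17%, against 4.79%), a share near that of all genes. Between 3′F and WT, edgeR and DESeq2 called 0 of the 96 in either state, and 3 of them had an unadjusted edgeR p under 0.05 at rest and 0 with LPS.

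Counts of ligands and receptors are to be read against the share of all genes called, which was 28.5% in the WT response. In KO against WT that share was 9.4% at rest, or 7.18% without resting KO replicate 3, and 4.79% with LPS. Among the ligands, 9 of 18 were tested and 5 rose and 1 fell in WT with LPS. Il27, a subunit of interleukin 27, rose by 3.30 on the log2 scale (SE 0.697, edgeR adjusted p = 0.0022) and Il10 by 2.03 (SE 0.603, adjusted p = 0.019), whereas Osm, which encodes oncostatin M, fell by 1.40 (SE 0.275, adjusted p = 0.0013). Il12b, the shared subunit of interleukins 12 and 23, was at 0 in all 3 resting WT libraries and at 2.09, 9.69 and 7.77 CPM with LPS. Il27 was called in KO against WT at rest too, by 2.53 (SE 0.737, adjusted p = 0.0411), but not without resting KO replicate 3 (1.49, adjusted p = 0.207). Of 23 receptors tested, 12 rose and 1 fell in WT with LPS, where Il4ra, the receptor chain upstream of STAT6, rose by 1.90 (SE 0.255, adjusted p = 5.01e-05), Il13ra1 by 1.94 (SE 0.278, adjusted p = 9.39e-05) and Il15ra by 2.92 (SE 0.488, adjusted p = 0.00036). Il7r, which encodes the interleukin 7 receptor, fell by 1.12 (SE 0.167, adjusted p = 0.000133). In KO against WT at rest 5 receptors were higher, among them Il21r at 1.97 (SE 0.348, adjusted p = 0.00321), Csf2rb2 at 1.24 (SE 0.292, adjusted p = 0.0143) and Il13ra1 at 1.19 (SE 0.277, adjusted p = 0.0133). With resting KO replicate 3 left out there were 3, with Il21r at 1.51 (adjusted p = 0.00921), while Csf2rb2 at 0.87 (adjusted p = 0.0609) and Il13ra1 at 0.86 (adjusted p = 0.0529) missed the threshold. With LPS Lifr was higher at 1.07 (SE 0.182, adjusted p = 0.00382) and Il7r lower at -1.29 (SE 0.168, adjusted p = 0.000416).

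All 4 Janus kinases were tested, and 3 rose in WT with LPS, where 28.5% of all genes were called. Jak2, which serves the interferon-γ and GM-CSF receptors, went from 59.6, 61.4 and 71.7 CPM at rest to 184.5, 161.5 and 237.1 CPM with LPS, a log2 fold change of 1.6 (SE 0.203, edgeR adjusted p = 2.98e-05). Jak3, which pairs with the common γ chain, rose by 1.22 (adjusted p = 0.000125) and Tyk2, the kinase of the interferon-α/β receptor, by 0.54 (adjusted p = 0.0427), while Jak1 was at 0.20 (adjusted p = 0.303). In KO 2 and in 3′F 3 of the 4 rose with LPS, where 26.9% and 31.2% of all genes were called. Without resting KO replicate 3 it was 3 in KO, where 35.5% were. Between genotypes only Jak2 in KO against 3′F at rest was called (0.73, adjusted p = 0.0271), where 12.9% of all genes were, a call lost without resting KO replicate 3 (0.42, adjusted p = 0.11). Among the 6 partners 2 rose in WT with LPS, a share near the 28.5% of all genes called there. These were Irf9 by 1.37 (SE 0.203, adjusted p = 0.000123) and Nmi by 2.13 (SE 0.579, adjusted p = 0.0115). Irf9, the DNA-binding partner of STAT2, held 29.6, 34.5 and 39.8 CPM in resting WT and 62.5, 56.5 and 115.7 CPM in resting KO. It was the only partner called between these groups, where 9.4% of all genes were called (1.17, SE 0.202, adjusted p = 0.00288), and as with Stat2 the highest KO library was replicate 3, without which the difference was 0.78 (adjusted p = 0.00215).

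Of 16 inhibitors tested, 6 rose and 2 fell in WT with LPS, where 28.5% of all genes were called, with a median of 0.20 on the log2 scale. Socs3, which blocks STAT3 signalling at the interleukin 6 receptor, went from 9.32, 9.78 and 13.8 CPM to 175.9, 87.9 and 152.6 CPM, a log2 fold change of 3.67 (SE 0.347, edgeR adjusted p = 1.55e-06). Socs1, an inhibitor of JAKs, rose by 3.96 (SE 0.630, adjusted p = 0.000236) and Usp18, which restrains interferon receptor signalling, by 5.18 (SE 0.919, adjusted p = 0.000573), while Socs6 fell by 0.97 (adjusted p = 0.000147) and Pias2 fell by 0.39 (adjusted p = 0.028). In KO against WT, Usp18 was the 1 inhibitor of 16 called at rest, where 9.4% of all genes were (4.65, SE 0.904, adjusted p = 0.00534), and without resting KO replicate 3 it was at 2.15 (adjusted p = 0.00836). Socs3 was then called too (1.22, adjusted p = 0.0281), which made 2 of the 16 inhibitors, where 7.18% of all genes were called. Ptpn1, a phosphatase that acts on JAKs, was the 1 called with LPS, where 4.79% of all genes were (0.53, SE 0.123, adjusted p = 0.0217). Socs3 was at 1.10 in KO against WT with LPS (adjusted p = 0.0516) and Socs1 at 1.03 (adjusted p = 0.247), neither of them called. Cish, a STAT5-induced inhibitor, was below the filter, with group means of 0.0932 to 0.562 CPM.

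The targets of STAT2, interferon-stimulated genes with antiviral products, were examined beside Stat2. Of all genes tested, 28.5% were called in the WT response, 31.2% in the 3′F response and 26.9% in the KO response. In KO against WT the share was 9.4% at rest and 4.79% with LPS. Without resting KO replicate 3 it was 35.5% in the KO response and 7.18% in KO against WT at rest. All 14 targets rose in WT with LPS, at a median of 5.96 on the log2 scale where the median over all genes tested was 0.02, with Mx1 at 7.15 (SE 1.40, edgeR adjusted p = 0.00127), Ifit2 at 6.58 (SE 1.22, adjusted p = 0.000822) and Ifit1 at 6.56 (SE 1.11, adjusted p = 0.000406). In 3′F 13 of 14 rose, at a median of 5.46, and in KO edgeR called 0 of 14, with 1 at an unadjusted p under 0.05 and a median of 1.26. There, 13 of the 14 rose without resting KO replicate 3, at a median of 4.3. In KO against WT at rest 13 of 14 were higher, at a median of 5.01, led by Mx1 at 6.34 (SE 1.36, adjusted p = 0.00886), Ifit3 at 5.68 (SE 1.12, adjusted p = 0.00584) and Ifit2 at 5.32 (SE 1.15, adjusted p = 0.0093). Leaving out resting KO replicate 3, 7 of 14 were higher, at a median of 1.88, with Ifit3 at 2.46 (adjusted p = 0.0151), and Mx1 at 2.39 (adjusted p = 0.0554) and Ifit2 at 1.78 (adjusted p = 0.0667) missed the threshold. With LPS edgeR called 0 of 14 between KO and WT, with 0 at an unadjusted p under 0.05 and a median of 0.59. Ifi44, the target not called at rest, was at 5.38, 0.151 and 19.5 CPM in resting WT.

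The summed level of the 14 STAT2 targets was spread widely among the resting KO libraries. It was 102, 104 and 245 CPM in resting WT, 608, 455 and 12593 CPM in resting KO and 193, 126 and 202 CPM in resting 3′F. Replicates 1 and 2 of resting KO were above every resting WT and 3′F library, and replicate 3 was at the level of the LPS libraries. With LPS it was 7151, 2981 and 17583 CPM in WT, 10610, 14659 and 11505 CPM in KO, and 7913, 8412 and 5471 CPM in 3′F. The WT libraries with LPS were ordered by this sum as they were by Stat2, with replicate 2 the lowest and replicate 3 the highest.

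**Figure D5:**
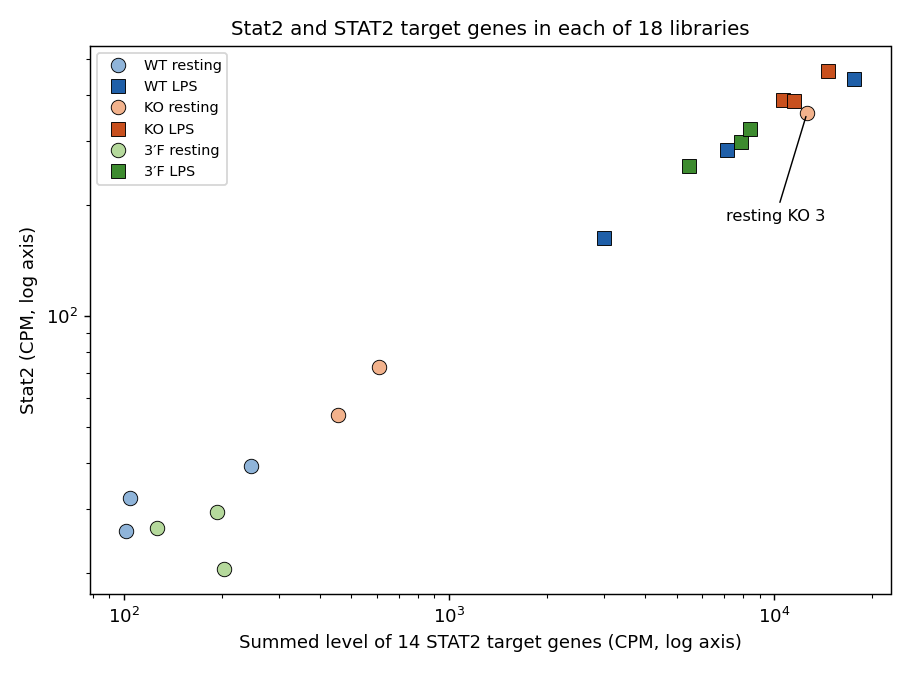
Stat2 level against the summed level of 14 STAT2 target genes, both in CPM on log axes, in each of 18 libraries. Circles are resting and squares LPS libraries, coloured by genotype. The resting libraries lie at 20.5 to 72.7 CPM of Stat2, apart from resting KO replicate 3 at 356.7 CPM, which lies among the LPS libraries.

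Targets of the other STATs followed less uniform patterns. Each count for the WT response is to be read against the 28.5% of all genes called there. Of 9 STAT3 targets tested, 6 rose in WT with LPS (median 0.78), among them Fgl2 at 4.0 (SE 0.877, edgeR adjusted p = 0.00286), Bcl3 at 1.55 (SE 0.337, adjusted p = 0.00272) and Nfil3 at 1.08 (SE 0.160, adjusted p = 0.000133). Bcl3 was the only STAT3 target called in KO against WT at rest, where 9.4% of all genes were (1.24, SE 0.340, adjusted p = 0.0316). Without resting KO replicate 3, Bcl3 (1.43, adjusted p = 0.0198) and Junb (0.68, adjusted p = 0.0336) were called, where 7.18% of all genes were. Of 5 STAT5 targets tested, 1 rose and 3 fell in WT with LPS, with Pim1 at 0.52 (adjusted p = 0.0227) and Bcl2l1, an inhibitor of apoptosis, at -0.69 (adjusted p = 0.000647), and Id2 was lower in KO than in WT with LPS (-0.92, SE 0.149, adjusted p = 0.00246). Osm, counted above as a ligand, and Pim1, which is also on the STAT3 list, are each on 2 lists. Of 10 STAT6 targets tested, 2 rose and 2 fell in WT with LPS, with Arg1, which encodes arginase, at 2.76 (SE 0.765, adjusted p = 0.0127), Ccl24 at 2.51 (SE 0.441, adjusted p = 0.000531) and Clec10a at -1.29 (SE 0.261, adjusted p = 0.00158). Ccl24 was called in KO against WT at rest too (2.88, SE 0.437, adjusted p = 0.00156). Without resting KO replicate 3, both Ccl24 (2.72, adjusted p = 0.00345) and Mgl2 (2.02, adjusted p = 0.0275) were called there. Only 2 of 5 STAT4 targets could be tested, and edgeR called 0 of them in the 11 comparisons, with 1 at an unadjusted p under 0.05 in the KO response to LPS and 1 in KO against 3′F at rest.

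Across the 18 libraries the log2 CPM of Stat2 and Stat3 had a Pearson r of 0.964, that of Stat2 and Stat5a 0.898 and that of Stat3 and Stat5a 0.855. Stat5b was closer to Stat6 (0.637) and Stat3 (0.618) than to its paralog Stat5a (0.182), and Stat6 had an r of -0.00483 with Stat2. These values describe libraries that fall into resting and LPS groups and share their depth. Among 11351 other genes tested, those whose log2 CPM was most like that of Stat2 over the 18 libraries were Dtx3l (r = 0.998), Ddx58 (0.997) and Gbp7 (0.997). Those most like Stat3 were Pitpna (0.993), Rasa4 (0.993) and Pik3cd (0.990), and those most like Stat5a were Tmem243 (0.969), Txnl4b (0.962) and Stoml1 (0.961). For Stat5b they were Abl1 (0.948), Marf1 (0.945) and Foxk1 (0.944), for Stat6 they included Orai3 (0.880) and Hnrnpl (0.868), and for Stat4 Taf1a (0.894), Ebpl (0.863) and Dlg2 (0.860). Stat4 had 2 to 10 counts in a library, and its highest level, 2.33 CPM, was in the shallow resting 3′F replicate 3. In that library Stat5b (24.5 CPM) and Stat6 (186.2 CPM) had their lowest levels. How far the r values of these 3 genes rest on it was not tested.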

How the data were processed

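RNA of 18 BMDM libraries was analysed from 1 table of raw counts that the authors deposited, whole numbers of reads per protein-coding gene, together with exon lengths. Per the labels and the study's methods, reads were trimmed with cutadapt 1.8.3, freed of ribosomal reads, aligned to mm10 with HISAT2 2.1.0 and counted by strand per Gencode M15 gene with featureCounts 1.5.3 at a mapping quality of at least 50. Reads that fit 2 genes equally well are lost at that setting.

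Groups came from the labels. Counts were analysed in R 4.3.3 with edgeR 4.0.16: filterByExpr with the 6 groups kept 11357 of 21734 genes, TMM gave factors of 0.812 to 1.15, and 1 quasi-likelihood fit over all 18 libraries, without a covariate, served 11 comparisons. Tests were two-sided and adjusted across all tested genes by Benjamini-Hochberg, with calls at an adjusted p under 0.05. The SE was the log2 fold change divided by the square root of F. The procedure was tested on simulated counts. DESeq2 1.42.0, limma 3.58.1 (voom with sample weights), RLE factors, no filter, the compared groups alone, a block for the replicate number and leaving out each library were alternatives. Levels were scaled to CPM and, between genes, per kb of exon. Total counts were 4071084 to 19818043 per library, floors (3 counts) cover counting error only, and replicate pairs differed by more than sampling noise. Libraries of a group came from 3 mice per genotype, so resting and LPS libraries share mice. Within a genotype the count columns of both states carry the same letters, A to C. The labels do not say that a letter is a mouse. The main fit did not pair the libraries, and the block was an alternative only.

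Promoters and the microRNA are RefSeq's, on GRCm38.p6, and 3′ UTRs and positions are Gencode M21's, on GRCm38. All 6 genes were found in both. The members and all lists were chosen with earlier results of these data known. The rule for naming genes took the 6 STAT genes, Irf9, the 4 JAKs, Socs1, Socs3 and Cish always. For each list it took up to 3 higher and 2 lower called genes of largest change, with an average log2 CPM of at least 1, in the WT response and in KO against WT. For each STAT gene it took the 3 genes of highest r, of which 1 is not reported here. Ifi44, Junb and Mgl2 were named after their values were seen. miR-146a itself was not analysed here.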

Additional observations from a re-analysis of the deposited data

How the results depend on the processing

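The number of STAT genes called was the same with DESeq2 and with RLE factors in all 11 comparisons. Without the filter on low counts and with the replicate block it went from 3 to 2 in KO against 3′F at rest, and with limma-voom from 3 to 4 in the WT and KO responses, without a change in the other comparisons. With the compared groups alone it went from 1 to 0 in KO against WT at rest (Stat2 2.29, adjusted p = 0.133), from 3 to 0 in KO against 3′F at rest and from 0 to 1 with LPS (Stat2 0.46, adjusted p = 0.0154). In fits that left out 1 library it ran from 2 to 3 in the KO response, from 0 to 1 in KO against WT at rest and from 1 to 3 in KO against 3′F at rest, and with resting KO and 3′F replicates 3 both left out, an alternative chosen after seeing the data, it was 4, 1 and 1 in these. The call for the Stat2 response in KO was gained without the filter (1.33, adjusted p = 0.0331), with limma-voom (2.54, adjusted p = 2.05e-07) and without resting KO replicate 3 (2.70). Stat6 lost its call without the filter in the KO response (-0.37, adjusted p = 0.0746) and in KO against 3′F at rest (0.38, adjusted p = 0.0926), and limma-voom called the Stat6 response in WT (-0.18, adjusted p = 0.0381). No scaling moved the median log2 fold change of all genes by over 0.1, and except where named the cause was not tested.

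The replicate numbers only name the libraries: of 9 same-numbered resting and LPS pairs, 5 had deviations that correlated above 0.1 (0.0283 to 0.318), and 15 of 18 libraries correlated best with their own number, a hint from the data. With the replicate block the Stat2 response in KO was called (1.91, adjusted p = 0.0141), Stat6 was not in the KO response (-0.31, adjusted p = 0.0806) or in KO against 3′F at rest (0.35, adjusted p = 0.0579), and Stat2 in 3′F against WT with LPS turned to 0.11, and no other call of a STAT gene changed. Over all genes tested the block took the KO interaction from 1 call to 0.

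The other changes of sign concerned differences that were never called. With limma-voom, Stat4 was at 0.76 in the 3′F response, 0.053 in KO against WT, -0.55 in 3′F against WT and 0.60 in KO against 3′F at rest, Stat5a at -0.0068 in KO against WT at rest, Stat6 at -0.065 in the 3′F response and 0.00041 in KO against 3′F with LPS, Stat2 at 0.040 in 3′F against WT with LPS and Stat3 at 0.017 in the KO interaction. The Stat4 interaction in 3′F was -0.26 with DESeq2 and -0.11 without the filter. With both libraries left out, Stat4 was at 0.76 in the 3′F response, -0.88 in 3′F against WT and 0.73 in KO against 3′F at rest, Stat5b at -0.016 and Stat6 at -0.097 in the 3′F response, Stat5a at -0.0099 in KO against WT at rest, Stat3 at 0.039 in the KO interaction and Stat4, unturned, at 1.21 in the 3′F interaction.

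Leaving out 1 library at a time also turned signs. In LPS responses Stat5b ran from -0.19 to 0.033 in WT, from -0.11 to 0.021 in KO and from -0.016 to 0.43 in 3′F, Stat4 from -0.89 to 0.76 and Stat6 from -0.097 to 0.12 in 3′F. At rest Stat5a ran from -0.034 to 0.16 in KO against WT, and Stat4 from -0.87 to 0.82 in 3′F against WT and from -1.2 to 0.51 in KO against 3′F. In 3′F against WT with LPS Stat2 ran from -0.31 to 0.39, Stat3 from -0.040 to 0.17, Stat4 from -0.064 to 0.80, Stat5a from -0.021 to 0.070 and Stat5b from -0.0076 to 0.13. In KO against 3′F with LPS Stat5a ran from -0.013 to 0.21 and Stat6 from -0.066 to 0.020. In the KO interaction Stat3 ran from -0.30 to 0.080, Stat4 from -1.06 to 0.069, Stat5a from -0.074 to 0.19 and Stat5b from -0.057 to 0.16, and in the 3′F interaction Stat4 from -0.48 to 1.2.

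Each list without resting KO replicate 3 was also taken after seeing the data. Of the 96 genes on the lists, DESeq2 called 8 in place of 4 in KO against WT with LPS. Without resting KO replicate 3, 64 in place of 38 were called in the KO response and 19 in place of 29 in KO against 3′F at rest. Levels per kb without scaling factors were Stat2 80.6 in KO with LPS, Stat3 20.2 in resting WT and 40.5 in KO with LPS, Stat5a 7.54 in resting WT and 9.07 in 3′F with LPS, Stat5b 11.5 in resting KO, 9.28 in KO with LPS and 8.95 in 3′F with LPS, and Stat6 71.9 in resting WT, 53.7 in WT with LPS and 51.9 in KO with LPS. With RLE factors Stat6 was at 56.0 in WT with LPS and 59.2 in KO with LPS.

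Counts of all genes called moved with limma-voom from 3240 to 5218, 3059 to 6073 and 3546 to 5478 in the LPS responses of WT, KO and 3′F, from 1067 to 2259 and 544 to 1777 in KO against WT at rest and with LPS, from 1464 to 2916 and 441 to 1842 in KO against 3′F, from 0 to 2 in 3′F against WT at rest and from 1 to 57 in the KO interaction. With the compared groups alone they were 380 and 1040 in KO against WT, 10 and 1665 in KO against 3′F, 0 in 3′F against WT with LPS and 0 in the KO interaction. DESeq2 gave 983 in KO against WT with LPS, 801 in KO against 3′F with LPS, 2 in 3′F against WT in each state and 15 in the KO interaction, and without the filter they were 1 in 3′F against WT at rest and 2 in the KO interaction. With both libraries left out they were 5036 in the KO response, 1669 in KO against WT, 745 in KO against 3′F and 1 in 3′F against WT at rest, and 33 in the KO interaction. Leaving out 1 library gave 2220 to 2932, 2154 to 4037 and 2498 to 3603 in the LPS responses of WT, KO and 3′F, 401 to 1047 and 185 to 423 in KO against WT at rest and with LPS, 735 to 1818 and 142 to 312 in KO against 3′F, 0 to 1 in 3′F against WT in each state and 0 to 4 in the KO interaction. The lowest were 401 without resting WT replicate 2, 185 and 142 without KO replicate 2 with LPS and 735 without resting 3′F replicate 3. KO against WT also moved by over 1.5 times without resting WT replicate 1 (590), WT replicate 2 (189) or KO replicates 1 (251) or 3 (355) with LPS, and KO against 3′F without resting KO replicate 3 (930), KO replicates 1 (187) or 3 (272) or 3′F replicates 1 (168) or 3 (155) with LPS. Stat4 counts were low throughout, and other STAT counts lowest in resting 3′F replicate 3.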
